A study of Mus musculus with 3 samples.

Results

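The genes described are 33 that encode scaffolds and signalling enzymes of the postsynaptic density, the protein mesh beneath the receptors of excitatory synapses. They were chosen by symbol, and all 33 were found among the 32531 genes listed in the count files. The list also holds Gphn, which builds the matching scaffold at inhibitory synapses. The RNA was captured from the cortex-amygdala transition zone, the strip where ventral cortex meets the amygdala, of adult mice of the Lypd1-TRAP line OI82. These mice carry EGFP fused to the ribosomal protein L10a (Lypd1-EGFP/Rpl10a), so that cells using the Lypd1 regulatory DNA of the transgene hold tagged ribosomes, and anti-EGFP antibodies pull these down with the messenger RNAs on them. There was 1 group of 3 untreated control libraries, called replicates 1, 2 and 3, with no unpurified tissue and no second group analysed here. The labels speak of 3 mice but do not tie a library to a single animal, so the SD given is that between libraries and may be partly technical.

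Excitatory postsynaptic scaffolds form a chain. The membrane-associated guanylate kinases of the Dlg family hold glutamate receptors and bind the Dlgap linkers, these bind the large Shank proteins, and Shank proteins bind Homer, which reaches to metabotropic glutamate receptors and calcium stores. CaMKII, the calmodulin-dependent kinase encoded by the Camk2 genes, and the phosphatase calcineurin, whose catalytic subunits are encoded by Ppp3c genes, respond to calcium entry with opposite actions on synaptic strength, and neurogranin (Nrgn) sets how much calmodulin is free to act on them. Most of these proteins come from families of paralogous genes that differ in their use between brain regions and cell types.

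Links of the chain are shown by the coding bases behind them, since the paralogues that share a link also share part of their sequence, and reads are assigned to one or the other by the bases that differ. All are 5′ to 3′ on the coding strand, from the longest complete coding transcript of each gene in the GENCODE M21 annotation of GRCm38. The end of the coding sequence of the 4 Dlgap genes is shown first, because its last 4 codons before the stop (capitals) encode the tail that the Shank PDZ domain binds.
Dlgap1: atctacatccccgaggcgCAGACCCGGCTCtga
Dlgap2: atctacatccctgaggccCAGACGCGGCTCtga
Dlgap3: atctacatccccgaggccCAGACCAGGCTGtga
Dlgap4: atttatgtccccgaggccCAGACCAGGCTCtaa
The capitals encode the same residues in all 4 genes but differ by 1 to 3 of 12 bases between any pair. They lie in the last coding stretch, at chr17:70818202-70818234 (plus strand, exon 12), chr8:14846676-14846708 (plus, exon 15), chr4:127236336-127236368 (plus, exon 12) and chr2:156762871-156762903 (plus, exon 13).

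The next link is the proline motif of the Shank proteins that Homer binds, shown with its 5 codons in capitals.
Shank1: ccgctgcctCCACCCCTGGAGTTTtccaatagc
Shank2: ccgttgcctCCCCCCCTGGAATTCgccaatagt
Shank3: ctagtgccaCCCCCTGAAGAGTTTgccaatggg
These stretches lie at chr7:44353572-44353604 (exon 24), chr7:144411117-144411149 (exon 22) and chr15:89549194-89549226 (exon 21), all on the plus strand. Shank1 and Shank2 differ at 6 of 33 bases, and Shank3 differs from each of them at 12. The third set surrounds the threonine codon (capitals) whose phosphorylation keeps CaMKII active after calcium has fallen.
Camk2b: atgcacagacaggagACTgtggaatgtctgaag
Camk2d: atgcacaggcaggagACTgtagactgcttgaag
Camk2g: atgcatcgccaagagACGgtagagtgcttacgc
They lie in exon 11 of each transcript, at chr11:5988982-5989014 (minus strand), chr3:126797726-126797758 (plus) and chr14:20760424-20760456 (minus), and differ from each other at 5 to 13 of 33 bases. The last is the calmodulin-binding IQ motif of neurogranin, whose first 7 codons are in capitals, at chr9:37546055-37546099 (minus strand, exon 2).
Nrgn: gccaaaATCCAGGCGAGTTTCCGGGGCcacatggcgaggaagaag

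Over whole coding sequences the paralogues of the 8 families were 63.9% to 79.8% identical in aligned bases, lowest for Homer1 and Homer3 and highest for Camk2a and Camk2b. The longest run of identical coding bases shared by any of the 27 pairs was 32, for Camk2a and Camk2b and for Iqsec1 and Iqsec2. A longer read from these coding sequences therefore differs between the paralogues by at least 1 base. UTRs were not compared.

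The captured RNA carried almost the whole set. Levels are given as CPM, the count of a gene divided by all counts assigned to genes in that library and scaled to 1000000. Of the 33 genes 32 reached 1 CPM in every library, here called detected, against 39.3% of all listed genes. Homer3 was the exception, with 0.270, 0.284 and 0.923 CPM in replicates 1, 2 and 3, from 5, 7 and 8 reads. At 20 CPM or more in each library there were 29, and the 4 below that level were Homer3, Grip2, Pick1 and Dlgap3. Together the 33 genes took 0.999% to 1.39% of all assigned counts. The libraries held 18526251, 24690301 and 8668527 assigned counts in replicates 1, 2 and 3, so 3 counts, the upper limit for a gene with none, correspond to 0.162, 0.122 and 0.346 CPM, for counting error only.

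Since a long transcript gives more reads than a short one, levels of different genes are compared below as CPM per kb of annotated exon. The median over the 33 genes was 20.01 ± 2.79 CPM per kb (SD, n = 3), and over all detected genes with a known length it was 5.81 ± 0.319. Of the 32 detected genes 27 lay above the median of detected genes in each library, and 10 lay in the top 10% by their mean. Camk2a led, followed in order of mean CPM per kb by Nrgn, Camk4, Shank1, Ppp3ca, Camk2b, Sipa1l1, Cnksr2, Lrrc7 and Dlg2. The lowest, from the bottom, were Homer3, Grip2, Pick1, Grip1, Dlgap3 and Ppp3cb.

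**Figure D1:**
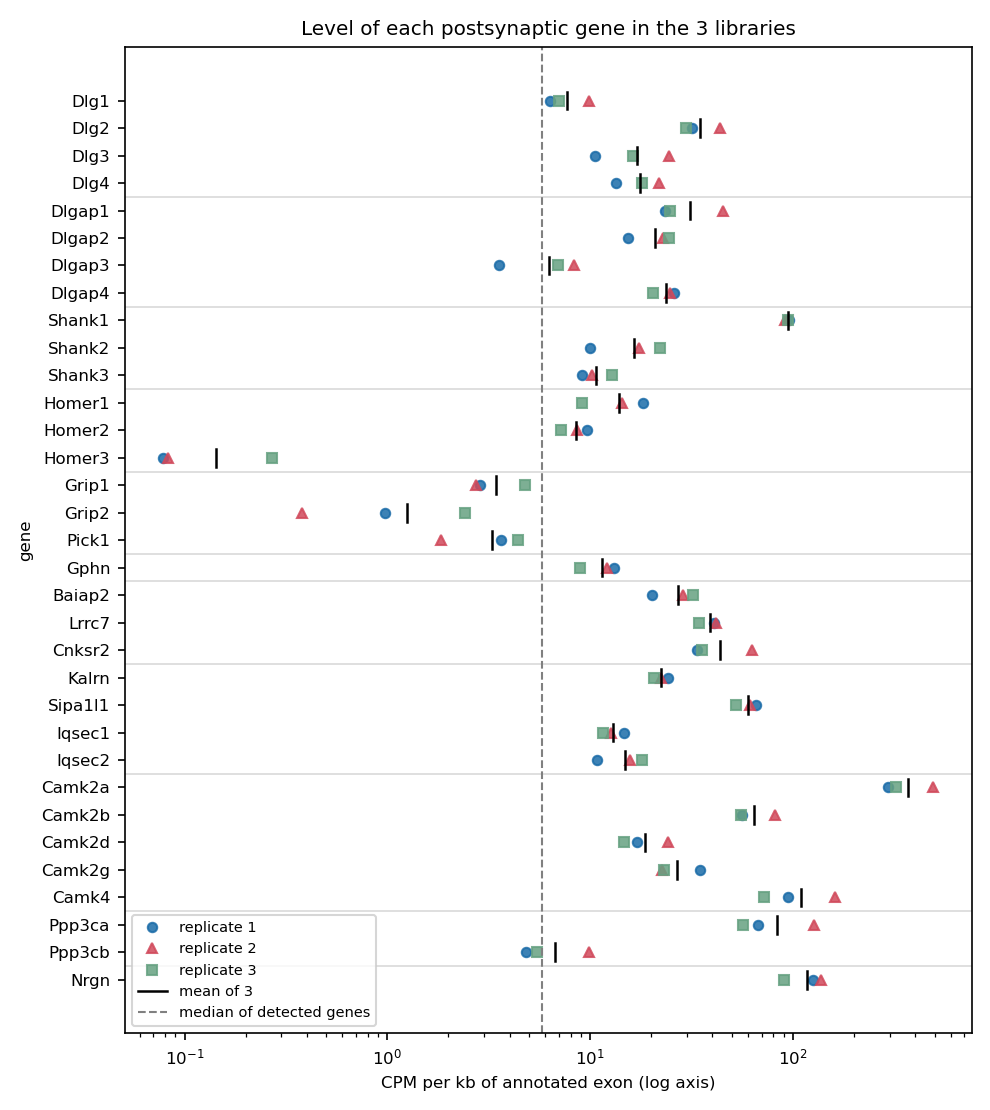
CPM per kb of annotated exon (log axis) of the 33 genes in each of the 3 libraries (points), with the mean (black bar) and, as a dashed line, the median of detected genes; horizontal lines divide the groups by role. Camk2a lies far to the right at 369 CPM per kb on average, and Homer3 far to the left at 0.143.

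Markers of neurons and of astrocytes were both present. All 12 pan-neuronal, 8 glutamatergic and 8 GABAergic markers were detected, with list medians of 64.4 ± 6.52, 21.7 ± 3.51 and 6.67 ± 2.07 CPM per kb. Each of the 8 astrocyte markers was detected too. Over that list the median CPM per kb averaged 30.9 ± 18.9, from 52.6 in replicate 1 to 22.0 in replicate 2 and 18.2 in replicate 3, above the GABAergic median in each library and above the glutamatergic one in replicate 1. Their summed levels were 1340 to 2252 CPM, highest in replicate 1, led per kb by Aldoc at 74.6 ± 37.7, Slc1a2 at 64.3 ± 7.23 and Gfap at 55.7 ± 43.1. Of the 8 oligodendrocyte, 5 precursor, 8 microglial, 6 endothelial and 7 mural or fibroblast markers 7, 5, 4, 4 and 6 were detected, and their list medians ran from 0.859 to 6.03 CPM per kb. The nuclear non-coding RNAs Malat1, Meg3 and 5 others summed to 63227, 31722 and 141519 CPM in replicates 1, 2 and 3. Lypd1, whose regulatory DNA marks the line, measured 32.98, 85.4 and 38.7 CPM per kb, and Rpl10a, whose endogenous and transgene reads are not separated, 50.0, 76.5 and 46.7. Because bulk RNA was measured, fewer cells of a type and less RNA per cell cannot be told apart for any gene below. With no unpurified tissue analysed here, RNA of tagged cells and RNA carried over from untagged cells cannot be told apart either.

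Paralogues were compared within each library as the log2 difference of CPM per kb, for all 27 pairs in the 8 families. A pair is called separated here when the difference had the same sign in 3 of 3 libraries and its mean was larger than its SD, and 22 of 27 pairs were. The share of other gene pairs that meet this rule was not computed, so the count is not read as a trait of these families. For each of these 22 an exact permutation test that flips the signs of the 3 library differences (two-sided) gave p = 0.25. That is the smallest p that 3 libraries allow, so no pair could pass 0.05. The sign of 20 of the 22 was the same in all 7 alternative settings, which left out each library, raised the pseudocount or changed the length correction. Leaving out a library cannot turn the sign of a pair with the same sign in all 3, so only the other settings could do so.

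**Figure D2:**
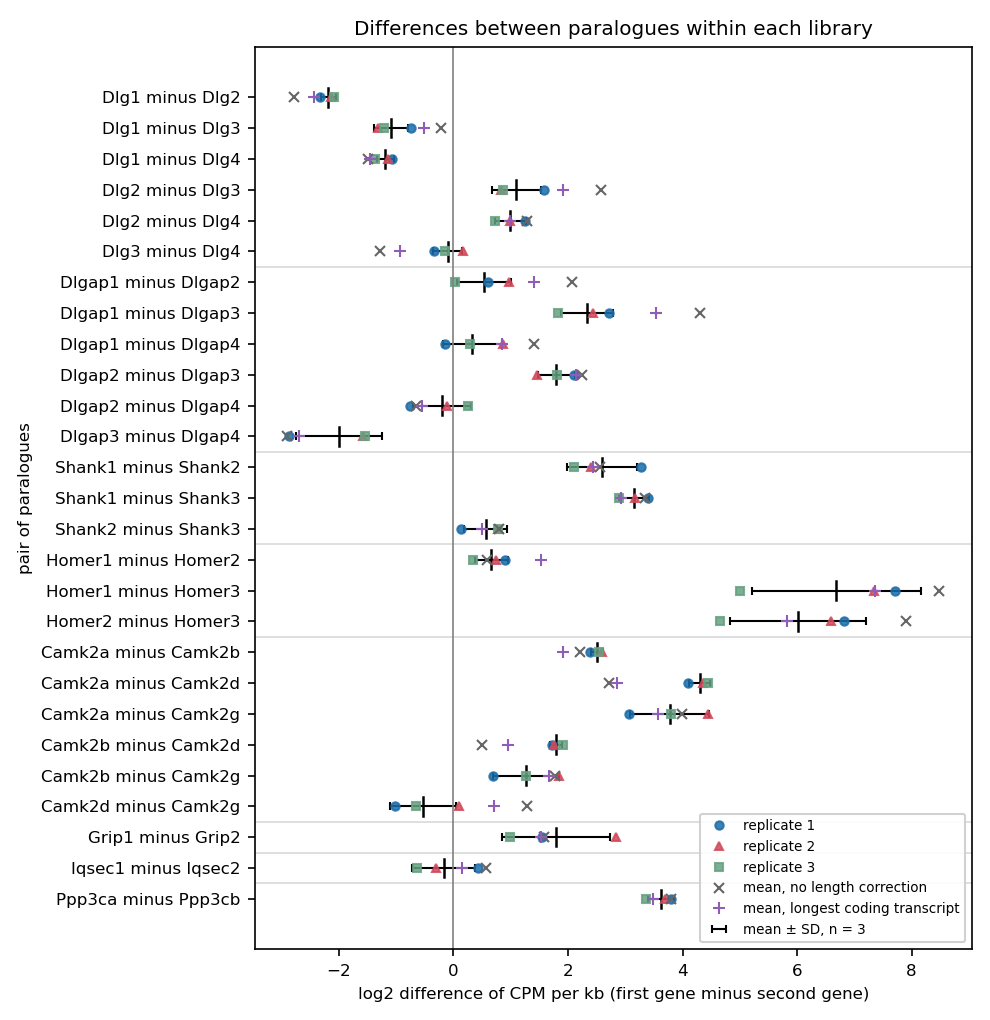
Log2 difference of CPM per kb between the first and the second gene of each of 27 paralogue pairs, by library (coloured points), with mean ± SD (n = 3, black) and the mean without length correction (grey cross) or with the longest coding transcript as length (purple plus). The pairs with Camk2a and with Ppp3ca lie well to the right of 0 by every measure, while Camk2d minus Camk2g changes side with the length used.

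Among the 4 Dlg genes Dlg2 was the most abundant per kb of annotated exon. Dlg2 measured 31.8, 43.4 and 29.6 CPM per kb in replicates 1, 2 and 3. Dlg4, the most studied scaffold of excitatory synapses, measured 13.3, 21.8 and 17.96. Dlg3, an X-linked member, measured 10.6, 24.5 and 16.2, and Dlg1, also used outside synapses, 6.30, 9.88 and 6.98. Dlg2 was thus the highest and Dlg1 the lowest in each library, and every Dlg gene was highest in replicate 2. Dlg2 took 45.6 ± 5.04% of the summed CPM per kb of the family, Dlg4 22.9 ± 2.15%, Dlg3 21.5 ± 3.96% and Dlg1 9.98 ± 0.154%.

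Dlg2 exceeded Dlg1 4.55-fold (Dlg1 minus Dlg2, −2.18 ± 0.13 log2), Dlg3 2.14-fold (1.09 ± 0.43) and Dlg4 1.99-fold (0.99 ± 0.27), per kb and in 3 of 3 libraries. Dlg1 lay below Dlg3 (−1.09 ± 0.30 log2) and below Dlg4 (−1.19 ± 0.15), also in 3 of 3. Dlg3 and Dlg4 were not separated, at −0.10 ± 0.25 log2, with Dlg3 the lower in 2 of 3 libraries. Without replicate 2 they differed by −0.24 ± 0.13 and without replicate 1 by 0.010 ± 0.22. Annotated exon bases are 16280 for Dlg2, 13251 for Dlg4, 10736 for Dlg1 and 5844 for Dlg3, and the order of this family leaned on them. With the mean length of coding transcripts in place of all exons, Dlg2 minus Dlg4 was −0.12 ± 0.27 and Dlg1 minus Dlg3 0.048 ± 0.30, both with the opposite sign. Over the 3 other treatments of length Dlg1 minus Dlg2 ran from −2.79 to −2.26, Dlg1 minus Dlg4 from −2.38 to −1.46, Dlg2 minus Dlg3 from 1.92 to 2.57 and Dlg3 minus Dlg4 from −2.43 to −0.93.

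The Dlgap linkers were led by 3 genes that could not be ranked firmly, with Dlgap3 far below. Dlgap1 measured 23.3, 45.1 and 24.8 CPM per kb in replicates 1, 2 and 3. Dlgap4 measured 25.9, 24.7 and 20.4, and Dlgap2 15.4, 22.9 and 24.4. The ranges of these 3 overlap, and Dlgap1 stood above the other two only in replicates 2 and 3. Dlgap3, in which mouse mutants groom to excess, measured 3.55, 8.30 and 6.97 CPM per kb, under the other 3 in each library.

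Dlgap1 exceeded Dlgap3 5.02-fold per kb (2.33 ± 0.45 log2) and Dlgap2 exceeded it 3.47-fold (1.80 ± 0.32). Dlgap3 minus Dlgap4 was −2.00 ± 0.75 log2, largest in replicate 1 at −2.87. Dlgap1 minus Dlgap2 was 0.53 ± 0.48, positive in 3 of 3 libraries but by only 0.024 in replicate 3. It fell under its SD without replicate 1 (0.50 ± 0.67) and without replicate 2 (0.31 ± 0.41). Dlgap4 was not separated from Dlgap1 (Dlgap1 minus Dlgap4, 0.33 ± 0.51) or from Dlgap2 (Dlgap2 minus Dlgap4, −0.20 ± 0.51). Without replicate 1 these were 0.57 ± 0.41 and 0.074 ± 0.26. Dlgap1 has 17890 annotated exon bases and Dlgap2 6149, and the gaps to Dlgap1 were wider under each of the 3 other treatments of length. There Dlgap1 minus Dlgap2 was 1.40 to 2.07 log2, Dlgap1 minus Dlgap3 3.54 to 4.31 and Dlgap1 minus Dlgap4 0.63 to 1.41, so that Dlgap1 came first on average. Dlgap3 minus Dlgap4 was −3.58 and Dlgap2 minus Dlgap4 −1.38 with the mean coding transcript.

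Shank1 was the main Shank gene and the steadiest gene of the set. It measured 96.0, 91.7 and 94.7 CPM per kb in replicates 1, 2 and 3, a coefficient of variation of 2.31%. Shank2 measured 9.95, 17.4 and 22.0, and Shank3, whose loss in people causes a syndrome with autism features, 9.08, 10.2 and 12.8. Both were lowest in replicate 1 and highest in replicate 3, whereas the highest Shank1 value was only 1.05 times the lowest. Shank1 took 77.8 ± 5.22% of the family's summed CPM per kb, Shank2 13.4 ± 4.29% and Shank3 8.76 ± 1.01%.

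Shank1 exceeded Shank2 6.03-fold (2.59 ± 0.60 log2 per kb) and Shank3 8.90-fold (3.15 ± 0.26), in 3 of 3 libraries. Shank2 exceeded Shank3 1.48-fold (0.56 ± 0.37), but by only 0.13 in replicate 1. That pair was no longer larger than its SD without replicate 2 (0.456 ± 0.460) or without replicate 3 (0.452 ± 0.454). The exon lengths of the 3 genes are alike, from 9189 to 10768 bases, but with the mean coding transcript as length Shank1 minus Shank3 was 2.46. Exons of the protein-coding gene 1700008O03Rik on the opposite strand share 339 bases with those of Shank1 (3.22% of its exon length), and reads there cannot be assigned to a strand, since the strand setting is not given in the sources used here.

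Homer1 and Homer2 were both present and Homer3 was near the limit of detection. Homer1 measured 18.2, 14.3 and 9.11 CPM per kb in replicates 1, 2 and 3, and Homer2 9.69, 8.57 and 7.18. Homer3, known from cerebellar Purkinje cells, measured 0.0785, 0.0824 and 0.268. Homer1 was above Homer2 in each library, and both were highest in replicate 1 and lowest in replicate 3, while Homer3 was highest in replicate 3. The counts do not separate the long Homer1 forms, which link partners into a lattice, from the short form induced by activity, which cannot.

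Homer1 exceeded Homer2 1.58-fold per kb (0.66 ± 0.29 log2) and took 60.8 ± 5.18% of the family's summed CPM per kb. Homer1 minus Homer3 was 6.69 ± 1.47 log2 and Homer2 minus Homer3 6.02 ± 1.19. Without replicate 3 these were 7.53 ± 0.27 and 6.71 ± 0.15, so the size of the gap rests on that library, which had the fewest counts. Length moved these gaps too: Homer1 minus Homer2 was 1.53 with the longest and 1.29 with the mean coding transcript. Homer1 minus Homer3 was 8.49 and Homer2 minus Homer3 7.90 without length correction, and with a pseudocount of 5 counts they were 5.97 and 5.31. Of the annotated exon bases of Homer3 25.4% are shared with Ddx49 on the opposite strand, a gene that measured 4.57 CPM on average. Whether reads there were counted for either gene or set aside as ambiguous is not known, since the strand setting is not given.

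**Figure D3:**
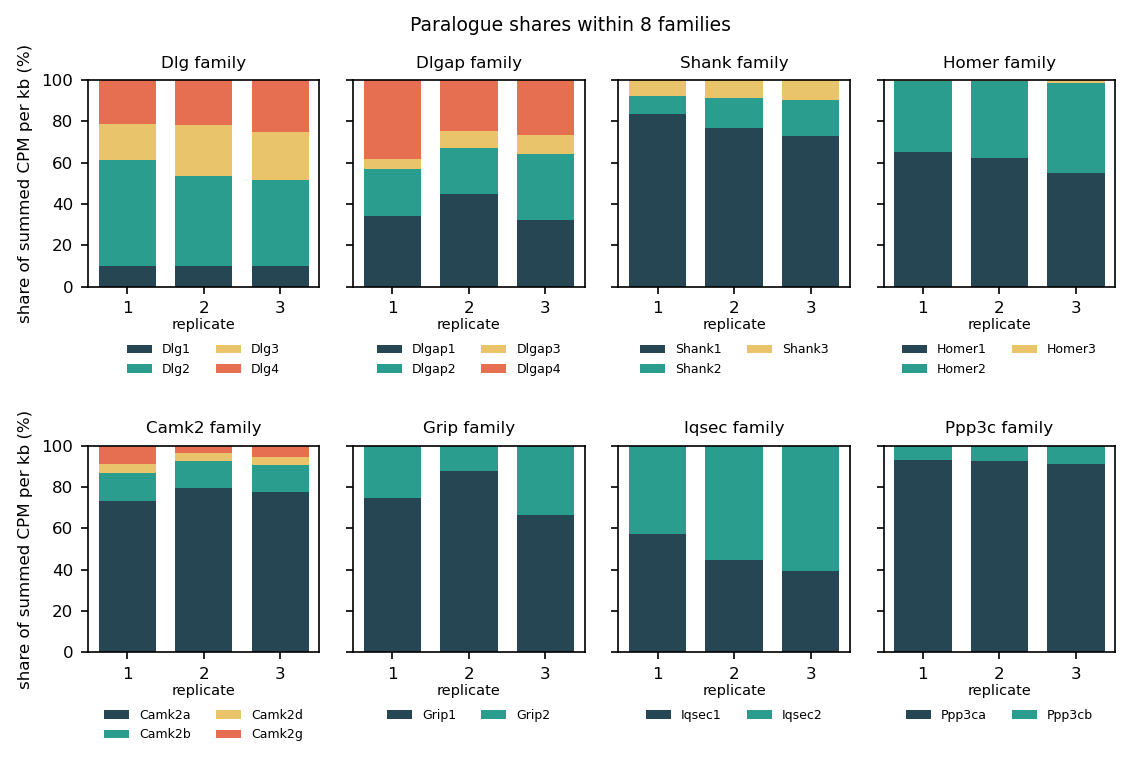
Share of each paralogue in its family's summed CPM per kb (%), stacked to 100%, by replicate, for 8 families. Camk2a, Shank1 and Ppp3ca take most of the sum of the genes plotted with them in each library, while the Dlg, Dlgap and Iqsec families are divided among several genes.

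The adaptors that bind AMPA receptor tails through PDZ domains were low per kb of annotated exon. Grip1 measured 2.86, 2.73 and 4.75 CPM per kb in replicates 1, 2 and 3. Grip2 measured 0.975, 0.381 and 2.40. Pick1, which promotes internalization of AMPA receptors, measured 3.64, 1.84 and 4.39. All 3 lay below the median of detected genes in each library, and each was lowest in replicate 2 and highest in replicate 3. Grip1 minus Grip2 was 1.79 ± 0.95 log2, positive in 3 of 3 libraries, and Grip1 took 66.4% to 87.7% of their sum. Pick1 shares 18.6% of its annotated exon bases with Gm49486, an overlapping gene model on the same strand. Its longest coding transcript holds 2054 of its 6573 annotated exon bases, so its level per kb would be higher with that length.

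Gphn, the gephyrin gene that clusters glycine and GABA-A receptors at inhibitory synapses, ranked 24th of the 33 genes per kb. It measured 13.2, 12.1 and 8.86 CPM per kb in replicates 1, 2 and 3. In replicate 1 this was close to Dlg4, at 13.3, and in replicates 2 and 3 it was below it. This pair was chosen after its values were seen. All 5 other genes of the inhibitory postsynapse were detected, among them the adhesion protein gene Slitrk3 at 31.1 ± 9.62 CPM per kb and the neuroligin gene Nlgn2 at 24.7 ± 5.15.

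Of the other scaffolds, Cnksr2 and Lrrc7 ranked 8th and 9th of the 33 by mean CPM per kb. Cnksr2, an X-linked scaffold that brings Ras pathway proteins to the density, measured 33.5, 62.5 and 35.5 CPM per kb in replicates 1, 2 and 3. Lrrc7, which encodes densin and binds CaMKII, measured 40.7, 41.7 and 34.3. Baiap2, a membrane-bending adaptor between Shank and actin, measured 20.2, 28.5 and 32.2. Cnksr2 was highest in replicate 2 by a wide gap, whereas Lrrc7 differed little between the libraries.

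The regulators of small GTPases ranged from Sipa1l1, 7th of the 33, to Iqsec1 and Iqsec2. Sipa1l1, a GTPase-activating protein of dendritic spines that switches Rap off, measured 65.3, 61.3 and 52.3 CPM per kb in replicates 1, 2 and 3. Kalrn, an exchange factor that enlarges spines, measured 24.1, 22.2 and 20.6. Both were highest in replicate 1 and lowest in replicate 3, with highest-to-lowest ratios of 1.25 and 1.17. Iqsec1 and Iqsec2, exchange factors for Arf proteins, measured 14.6, 12.6 and 11.6 and, for Iqsec2, 10.9, 15.7 and 17.98 CPM per kb. Iqsec1 was the higher in replicate 1 and Iqsec2 in replicates 2 and 3, so the pair was not separated (−0.17 ± 0.55 log2, Iqsec1 minus Iqsec2). Its sign depended on replicate and length: it was −0.47 ± 0.23 without replicate 1, 0.059 ± 0.52 without replicate 3 and 0.56 ± 0.55 without length correction.

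Among the kinases Camk2a stood first. Camk2a, which encodes the alpha subunit of CaMKII and is used in forebrain glutamatergic neurons, measured 292, 493 and 323 CPM per kb in replicates 1, 2 and 3, above 99.8% of detected genes by its mean. Camk2b, which encodes the actin-binding beta subunit, measured 56.1, 81.5 and 55.5. Camk2g measured 34.8, 22.6 and 23.1 and Camk2d, used in many tissues, 17.0, 24.2 and 14.7. Camk2a, Camk2b and Camk2d were highest in replicate 2, while Camk2g was highest in replicate 1. By summed CPM the astrocyte, GABAergic, oligodendrocyte, microglial and mural or fibroblast markers were also highest in replicate 1. The pan-neuronal, glutamatergic, precursor and endothelial markers were not. Whether any of these cell types had a part in the Camk2g level was not tested.

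Camk2a took 76.6 ± 3.26% of the family's summed CPM per kb, Camk2b 13.5 ± 0.471%, Camk2g 5.96 ± 2.55% and Camk2d 3.90 ± 0.356%. Camk2a exceeded Camk2b 5.68-fold (2.51 ± 0.11 log2), Camk2g 13.7-fold (3.77 ± 0.69) and Camk2d 19.7-fold (4.30 ± 0.18), in 3 of 3 libraries. The difference of Camk2a and Camk2b ran from 2.38 to 2.60 log2 over the libraries, a narrower range than that of either level. Camk2b exceeded Camk2d 3.47-fold (1.80 ± 0.10) and Camk2g 2.41-fold (1.27 ± 0.58). The folds over Camk2d rest on its 22493 annotated exon bases, of which the longest coding transcript holds 5524. With the longest coding transcript of each gene as length, Camk2a exceeded Camk2d by 2.86 ± 0.18 log2 and Camk2b by 1.91 ± 0.11, and Camk2b exceeded Camk2d by 0.95 ± 0.10. Without length correction Camk2b exceeded Camk2d by 0.49. Camk2d minus Camk2g was −0.53 ± 0.57 per exon kb and 0.71 ± 0.57 with the longest coding transcript, so that their order was not settled. Without replicate 2 it was −0.84 ± 0.27 per exon kb.

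Camk4, which encodes a kinase that acts on transcription in the nucleus, measured 94.7, 161 and 71.5 CPM per kb in replicates 1, 2 and 3. Per exon kb it lay above Camk2b in each library, but by CPM, at 309, 526 and 233, it lay below Camk2b, at 512, 743 and 506. The order of these genes thus depends on the length correction, with 3259 annotated exon bases for Camk4 and 9125 for Camk2b. Among 17 other calcium and calmodulin genes 16 were detected. Among the highest were Camk2n1, an inhibitor of CaMKII, at 205 ± 76.3 CPM per kb, and Ppp3r1, the regulatory subunit of calcineurin, at 162 ± 80.1. Pcp4, a small calmodulin-binding gene with an IQ motif like that of Nrgn, was the one not detected and lay at the bottom of that list.

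Of the calcineurin catalytic subunits in the set, Ppp3ca far exceeded Ppp3cb. Ppp3ca measured 67.2, 127 and 56.5 CPM per kb in replicates 1, 2 and 3, and Ppp3cb 4.82, 9.81 and 5.49. Both were highest in replicate 2, and their ranges did not overlap. Ppp3ca exceeded Ppp3cb 12.3-fold (3.62 ± 0.23 log2) and took 92.4 ± 1.13% of the sum of these 2 genes. The other catalytic subunit gene, Ppp3cc, is outside the set and was chosen after its values were seen. It measured 8.50, 8.07 and 8.04 CPM per kb, above Ppp3cb in replicates 1 and 3 and below it in replicate 2. Nrgn measured 126, 137 and 90.7 CPM per kb, lowest in replicate 3. Its 1453 annotated exon bases are the fewest of the set, so its place by CPM alone, at 183, 199 and 132 CPM, is much lower than its place per kb.

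Other genes of the density gave similar levels. All 25 other scaffold genes were detected, with a median of 22.4 ± 4.87 CPM per kb, led by Ddn at 92.8 ± 53.6, Ppp1r9b at 51.4 ± 11.7 and Ppp1r9a at 50.2 ± 13.8. Ddn encodes dendrin, whose messenger RNA is carried into dendrites, and the Ppp1r9 genes encode spinophilin and neurabin, which hold protein phosphatase beside actin. All 19 other GTPase regulators were detected, with a median of 20.6 ± 3.15 CPM per kb, led by Rasgrp1 at 132 ± 34.7, Srgap3 at 77.5 ± 13.9 and Rasgrf1 at 77.3 ± 5.46. These medians lie within 1 SD of the median of the 33 genes.

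No member was called as varying between the libraries beyond the spread fitted for genes of its level. In an intercept-only negative binomial fit across 15336 genes (edgeR, TMM scaling), 0 of 32 tested members were called as varying at an adjusted p (Benjamini-Hochberg) under 0.05, where 0.209% of all tested genes were called. None of the 32 had an unadjusted p under 0.05 either, and the lowest was 0.103, for Ppp3ca (adjusted p = 0.791). With DESeq2 size factors, which called 0.215% of genes, no member was called. A common dispersion for all genes called 5.09% of genes and no member. For the members that setting was stricter, so it could not call one that the first fit missed: the unadjusted p of Ppp3ca in this fit was 0.566. This does not show that the levels were equal: with 3 libraries, even Grip2, whose highest library exceeded its lowest 6.31-fold, was not called. The highest library exceeded the lowest 1.62-fold in the median of the 32 detected members, and 1.95-fold in the median of all detected genes. Among the 1981 detected genes with a mean of 100 to 1000 CPM, a level like that of most members, this median was 1.65. Members with a ratio of 2 or more numbered 8 of 32, against 47.7% of all detected genes. Those genes are not matched in level: their median was 25.2 CPM, against 166 for the 33 members.

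**Figure D4:**
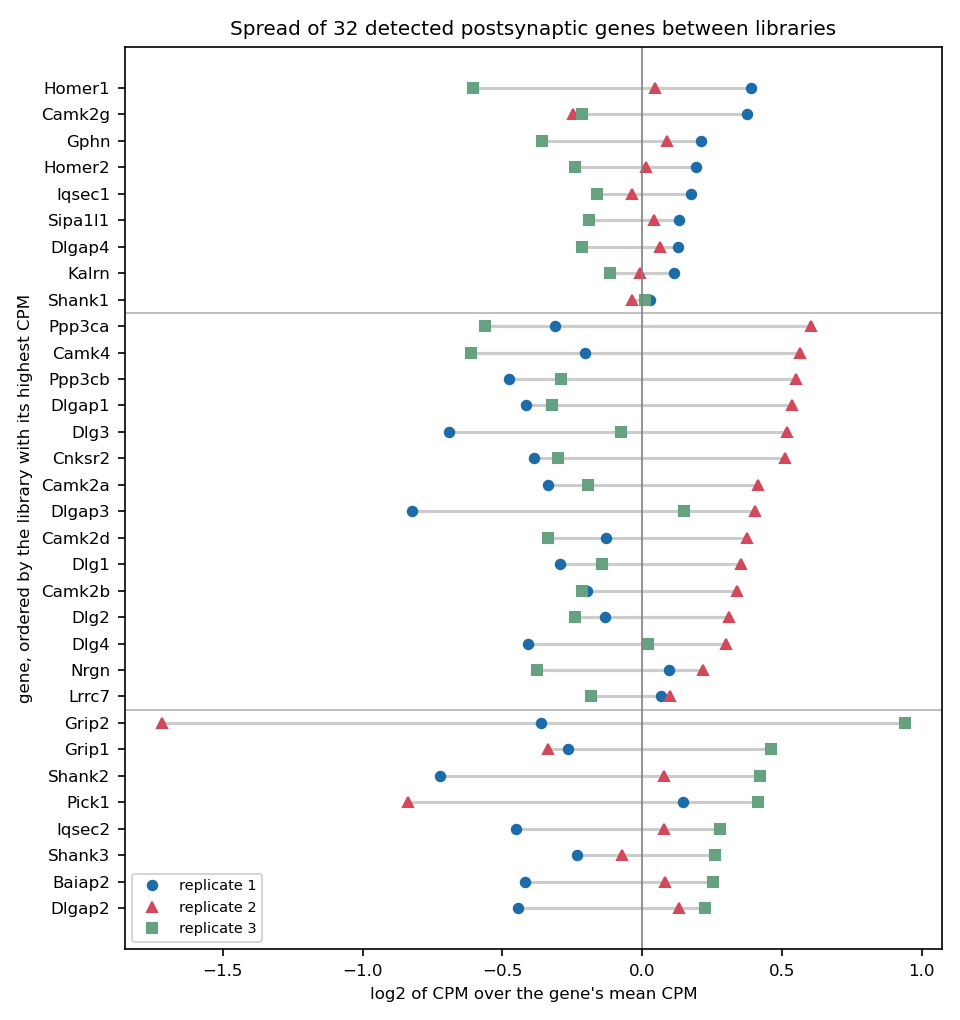
Log2 of the CPM in each library over the gene's mean CPM, for the 32 detected genes, grouped from top to bottom by the library with the highest value (replicate 1, 2 or 3). Grip2 spans the widest range and Shank1 the narrowest.

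Within that spread the members fell into 3 groups by the library where each was highest, by CPM. Replicate 2 was the highest for 15 of 32 members, against 31.1% of all detected genes. These were the 4 Dlg genes, Dlgap1, Dlgap3, Cnksr2, Lrrc7, Camk2a, Camk2b, Camk2d, Camk4, Ppp3ca, Ppp3cb and Nrgn. Replicate 1 was the highest for 9 (32.6% of all detected genes), namely Homer1, Homer2, Gphn, Dlgap4, Shank1, Kalrn, Sipa1l1, Iqsec1 and Camk2g. Replicate 3 was the highest for 8 (36.3%), namely Shank2, Shank3, Grip1, Grip2, Pick1, Baiap2, Iqsec2 and Dlgap2. Dlgap2, Shank1 and Baiap2 were highest in another library under at least 1 other scaling. With TMM scaling replicates 1, 2 and 3 were highest for 9, 16 and 7 members, against 33.1%, 36.1% and 30.7% of all detected genes.

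Among the calcium enzymes highest in replicate 2, the ratio of the highest to the lowest library was 2.26 for Camk4, 2.24 for Ppp3ca and 2.04 for Ppp3cb. It was 1.69 for Camk2a, 1.64 for Camk2d and 1.47 for Camk2b. The median for detected genes with a mean of 100 to 1000 CPM was 1.65. Camk4, Ppp3ca, Camk2d and Camk2b lie in that range of level, but Camk2a (mean 2756 CPM) and Ppp3cb (59.1) do not. Ppp3ca measured 671, 1267 and 564 CPM in replicates 1, 2 and 3, and Camk4 309, 526 and 233. Camk2a measured 2182, 3677 and 2408 CPM, so that replicate 2 stood above the other two for each of these genes. Replicate 2 also had the highest Lypd1 level and the highest summed glutamatergic markers (1109 CPM, against 720 and 893). Its summed GABAergic markers were the lowest (576 CPM, against 1103 and 804). Single markers did not all follow: Slc17a6 and Neurod6 were lowest in replicate 2, and Gad2 was lowest in replicate 3. The summed pan-neuronal markers were highest in replicate 2 as well (18848 CPM, against 13066 and 10350). Replicate 3, where Grip1, Grip2 and Pick1 were highest, had the most nuclear non-coding RNA, as given above. The part of these library differences in the members' levels was not tested.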

How the data were processed

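The authors deposited 1 file of whole-number read counts per gene for each of 3 libraries, not normalized. The submitters' processing notes name the aligner STAR 2.0.0e, the build mm10 and the counter HTSeq. The annotation, strand setting and library kit are not given in the sources used here. The 5 HTSeq summary classes and 1 row naming no gene, which held 0 counts, stayed out of totals. Reads in no counted feature made up 25.6% to 45.3% of all reads in the files and reads with several alignments 16.5% to 32.7%.

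CPM and exon lengths (GENCODE M21, GRCm38, exons of all transcripts merged) were computed with Python 3.11.15 and pandas 2.3.3. Lengths were found for 71.0% of listed genes, 91.8% of detected genes and all 33 members. Contrasts are log2 differences of (count + 0.5) per exon kb. Variation between libraries used edgeR 4.0.16 in R 4.3.3 (glmFit, TMM, trended dispersion, chi-square goodness of fit, mean CPM at least 1). DESeq2 1.42.0 gave alternative size factors. After it had been run on the real counts, the fit was also tested on counts simulated from its own fitted values. Members, families, comparison lists and alternatives were chosen with earlier results of these data known. Named comparison genes are the 3 highest per kb of each list, some of which are not reported here; a list gene outside this rule, or a pair noted as such, was chosen after its values were seen. Coding stretches were read from the GENCODE M21 transcripts with Biopython 1.88.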

Additional observations from a re-analysis of the deposited data

How the results depend on the processing

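Detection of 32 members held at 0.5 CPM and with any library left out, and 31 and 29 members reached 5 and 20 CPM. The number of separated paralogue pairs, 22 of 27 as reported, was 21 to 26 over the alternatives. Length mattered most for single pairs. Without length correction 18 of 27 differences moved by more than 1 SD, with the longest coding transcript 14, and with the mean coding transcript 15, where Dlg1 minus Dlg3 (0.048) and Dlg2 minus Dlg4 (−0.12) also turned sign. Of the pairs not called separated, Camk2d minus Camk2g (1.29, 0.71 and 0.37) and Iqsec1 minus Iqsec2 (0.56, 0.14 and 0.85) turned sign under all 3 of these length settings. With a pseudocount of 5 counts 0 of 27 differences moved by more than 1 SD. Leaving out 1 of 3 libraries cannot move a mean by more than 1 SD, so the same count there tests nothing. Leaving out replicate 1 turned the sign of Dlg3 minus Dlg4 (0.010) and Dlgap2 minus Dlgap4 (0.074). Leaving out replicate 3 turned that of Iqsec1 minus Iqsec2 (0.059). The median level of the members, 20.01 CPM per kb, was 23.6 with totals that leave out the 3 most abundant genes and 33.01 with the longest coding transcript as length. The number of all genes called as varying, 32, was 780 with a common dispersion, 20 among genes of 10 CPM or more and 5 to 22 with a library left out, and 0 members were called in each. Grip2 without replicate 1 and Dlg3 without replicate 3 had an unadjusted p under 0.05 (0.0224 and 0.0436). No paired comparison between groups was possible because there is only 1 group. Counts of 5 to 8 reads limit what can be said of Homer3.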
